A study of Mus musculus with 2 samples.

Results

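The inhibin, activin and receptor genes are 9 genes of the activin branch of the TGF-beta family, taken by symbol from the 55536 annotated genes measured in mouse adrenal gland. They are the hormone subunit genes Inha, Inhba and Inhbb, the binding protein gene Fst, the type I receptor genes Acvr1 and Acvr1b, the type II receptor genes Acvr2a and Acvr2b, and the co-receptor gene Tgfbr3. All 9 were found in the gene table and in both transcript tables. The study holds 2 total RNA libraries, biological replicates 1 and 2, of 1 group: adrenal glands of adult males aged 8 to 10 months from the 5xFAD and Cast cross, with 300 ng of RNA as input and ERCC spike-in RNA added.

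5xFAD mice carry human transgenes with familial Alzheimer's disease mutations behind the neuron-directed Thy1 promoter. The description of both samples names the cross, and no other group is compared here. Both libraries cite the same donor entry and separate tissue samples, so whether the spread between them is a spread between animals is not known. Reads that carry Cast alleles were placed on the mm10 reference. The glands were measured whole, and fewer cells of a type cannot be told apart from less RNA per cell in such samples. With 2 libraries of 1 group there is no contrast to test, so no p-value is given and every comparison below is a description.

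Activins are dimers of beta subunits, and inhibins pair a beta subunit with the alpha subunit. Activin binds a type II receptor kinase, which then activates a type I receptor kinase, and the signal passes to SMAD2 and SMAD3. Inhibin opposes it by occupying type II receptors together with the co-receptor betaglycan, the product of Tgfbr3, and follistatin opposes it by binding activin itself. In the adrenal gland, inhibin alpha is known from the cortex, and mice without Inha develop cortical tumours after gonadectomy.

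The beta subunits are close relatives, as are the type I and the type II receptors, so the stretches around each pair's longest shared coding run are shown first. Other stretches of a pair may be more alike over their whole length, which was not searched for. The shared runs bear on whether reads of one gene could be counted for its relative. The first pair is the last 81 coding bases before the stop codon of both beta subunit genes, which encode the carboxyl end of the mature hormone. Capitals mark the longest run of bases that the coding sequences share. The Inhba stretch lies at chr13:16027046-16027126 on the plus strand and the Inhbb stretch at chr1:119417325-119417405 on the minus strand of mm10, each within 1 exon.
Inhba: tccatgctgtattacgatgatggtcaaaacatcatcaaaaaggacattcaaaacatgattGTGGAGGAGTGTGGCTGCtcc
Inhbb: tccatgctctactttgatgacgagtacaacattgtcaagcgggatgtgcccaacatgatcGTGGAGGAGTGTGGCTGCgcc

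These stretches had 60 of 81 bases in common (74.1%), and the longest shared run was 18 bases. The receptor pairs were compared in the same way over 134 spliced coding bases around their longest shared run, again in capitals. The Acvr2a stretch spans chr2:48896993-48898493 and the Acvr2b stretch chr9:119432510-119432728, both on the plus strand and both across an exon junction.
Acvr2a: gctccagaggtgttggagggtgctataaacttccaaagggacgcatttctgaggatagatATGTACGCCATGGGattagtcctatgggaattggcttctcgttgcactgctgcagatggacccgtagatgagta
Acvr2b: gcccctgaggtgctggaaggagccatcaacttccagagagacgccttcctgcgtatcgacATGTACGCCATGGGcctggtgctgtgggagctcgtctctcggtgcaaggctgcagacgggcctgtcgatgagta

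The type I receptor stretches span chr2:58463045-58468535 on the minus strand for Acvr1 and chr15:101198969-101202065 on the plus strand for Acvr1b.
Acvr1: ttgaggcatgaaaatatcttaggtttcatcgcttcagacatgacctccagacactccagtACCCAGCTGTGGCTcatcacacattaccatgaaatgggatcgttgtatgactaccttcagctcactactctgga
Acvr1b: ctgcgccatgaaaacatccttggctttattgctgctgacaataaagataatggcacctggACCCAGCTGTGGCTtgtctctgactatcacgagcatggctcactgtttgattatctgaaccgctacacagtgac

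In both receptor pairs the longest shared run was 14 bases, with 102 of 134 bases in common (76.1%) between Acvr2a and Acvr2b and 80 of 134 (59.7%) between Acvr1 and Acvr1b. Whole transcripts were also compared, each read along its own strand only. Inha, Inhbb, Acvr1, Acvr2a and Acvr2b had no word of 31 bases in common with a transcript of any other gene. Acvr1b had 8 such words of 4388 (0.182%), Fst 20 of 4706 (0.425%) and Inhba 40 of 6308 (0.634%). Tgfbr3 had 269 of 6513 (4.13%), all in Gm43422, an annotated entry that lies within Tgfbr3 on the same strand.

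The gland held much more RNA for the co-receptor and for Acvr1 and Inha than for the beta subunits and follistatin. Levels are in TPM, a share of the library's transcripts per length that can be set side by side between genes. Total counts over annotated genes were 29204618 in replicate 1 and 26322446 in replicate 2, of which the 9 genes held 0.0621% and 0.0602%. The gene models lie on the mm10 build, and the bounds beside a level are those deposited with it, whose confidence level is not stated in the sources used here.

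Inha (chr1:75507077-75510366, plus strand) encodes the alpha subunit that is specific to inhibin. It stood at 18.5 TPM in replicate 1 and 19.5 TPM in replicate 2, from 727 and 686 expected counts, with a mean of 19.0 TPM ± 0.735 (SD, n = 2). The deposited bounds were 16.7 to 19.4 TPM and 17.6 to 20.4 TPM and overlapped. Its mean was above 80.4% of the nuclear protein-coding genes.

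Both beta subunit genes were near or below 1 TPM. Inhbb (chr1:119415465-119422248, minus strand), the beta B subunit, stood at 1.30 and 1.13 TPM in replicates 1 and 2, from 155 and 120 counts, with a mean of 1.21 TPM ± 0.120 (SD, n = 2). Inhba (chr13:16011851-16031621, plus strand), the beta A subunit, stood at 0.62 and 0.82 TPM, from 79 and 90 counts, with a mean of 0.720 TPM ± 0.141 (SD, n = 2). Inhbb was higher than Inhba in both libraries, by 2.10 times in replicate 1 and 1.38 times in replicate 2. The deposited bounds of Inhbb and Inhba were apart in replicate 1 (1.08 to 1.48 TPM against 0.415 to 0.865 TPM) and overlapped in replicate 2 (0.913 to 1.31 TPM against 0.554 to 1.12 TPM).

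Alpha subunit RNA exceeded the sum of both beta subunit RNAs in both libraries. The TPM ratio of Inha to Inhba plus Inhbb was 9.61 in replicate 1 and 10.0 in replicate 2, a mean of 9.81 ± 0.273 (SD, n = 2). These are ratios of RNA, and the dimers themselves were not measured.

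Fst (chr13:114452290-114458951, minus strand) encodes follistatin. It stood at 0.75 TPM in replicate 1 and 1.33 TPM in replicate 2, from 39 and 52 counts, with a mean of 1.04 TPM ± 0.410 (SD, n = 2). The second library was higher, but the deposited bounds of 0.596 to 1.30 TPM and 0.931 to 1.97 TPM overlapped. Relative to the summed beta subunits it was 0.391 in replicate 1 and 0.682 in replicate 2, so both libraries held less follistatin RNA than beta subunit RNA. It had the fewest counts of the 9 genes, and its values are the least precise.

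The type I receptor genes were far apart. Acvr1 (chr2:58388644-58567157, minus strand) encodes ALK2, a type I receptor known chiefly from BMP signalling. It stood at 29.6 TPM in replicate 1 and 37.0 TPM in replicate 2, from 2292 and 2437 counts, with a mean of 33.3 TPM ± 5.24 (SD, n = 2). Replicate 2 was higher, and the bounds of 28.0 to 30.9 TPM and 34.3 to 38.3 TPM did not overlap. Acvr1 was the 1 gene of the 9 with bounds apart between libraries, where 9.53% of the 16380 genes with a mean of at least 20 counts had bounds apart.

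Acvr1b (chr15:101174067-101213684, plus strand) encodes ALK4, the main type I receptor for activin. It stood at 4.21 and 4.17 TPM in replicates 1 and 2, from 521 and 461 counts, with a mean of 4.19 TPM ± 0.0283 (SD, n = 2). The 2 values lay close together, and Acvr1b was 0.142 times Acvr1 in replicate 1 and 0.113 times Acvr1 in replicate 2.

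The type II receptor genes were close to each other in level. Acvr2a (chr2:48814109-48903269, plus strand) stood at 5.66 and 5.59 TPM, from 831 and 799 counts, with a mean of 5.63 TPM ± 0.0495 (SD, n = 2). Acvr2b (chr9:119402118-119434995, plus strand) stood at 4.13 and 4.00 TPM, from 254 and 212 counts, with a mean of 4.06 TPM ± 0.0919 (SD, n = 2). Acvr2a was the higher in both libraries, by 1.37 and 1.40 times, a difference larger than the spread between replicates of either gene. In replicate 1 the deposited bounds of Acvr2a (4.95 to 6.50 TPM) and Acvr2b (3.64 to 5.18 TPM) nevertheless overlapped.

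Tgfbr3 (chr5:107106570-107289629, minus strand) encodes betaglycan, which presents TGF-beta2 to its receptors and raises the affinity of inhibin for the activin type II receptors. It was the highest of the 9 genes in both libraries, at 98.3 TPM in replicate 1 and 94.1 TPM in replicate 2, from 13237 and 10988 counts. Its mean was 96.2 TPM ± 2.97 (SD, n = 2), above 97.8% of the nuclear protein-coding genes. Tgfbr3 alone made up 60.3% and 56.1% of the summed TPM of the 9 genes in replicates 1 and 2. It was 10.0 and 9.82 times the sum of Acvr2a and Acvr2b, a mean ratio of 9.93 ± 0.162 (SD, n = 2).

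In order of mean level the genes were Tgfbr3, Acvr1, Inha, Acvr2a, Acvr1b, Acvr2b, Inhbb, Fst and Inhba. Of the 8 neighbouring pairs in this order, 7 kept their order within each library, all but Inhbb and Fst. For 6 pairs both values of the higher gene were above both values of the lower one, and the values of Inhbb and Fst and of Fst and Inhba overlapped across libraries. Acvr1b and Acvr2b were only 1.03 times apart and their deposited bounds overlapped, so their order has little weight. The step from Tgfbr3 to Acvr1 was 2.89 times and that from Tgfbr3 to Inhba 134 times.

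Detection meant a level of at least 1 TPM in each library, which 7 of the 9 genes reached. Fst missed the limit in replicate 1 and Inhba in both. The share detected was 25.5% over all annotated genes and 56.2% over annotated protein-coding genes. The limit depends on the scale, since TPM is a share of all features of the gene table, noncoding RNA included. Rescaled over nuclear protein-coding genes, Inhbb had a mean of 3.63, Fst 3.10 and Inhba 2.15, and all 9 genes passed the limit of 1, as did 62.1% of annotated protein-coding genes.

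**Figure D1:**
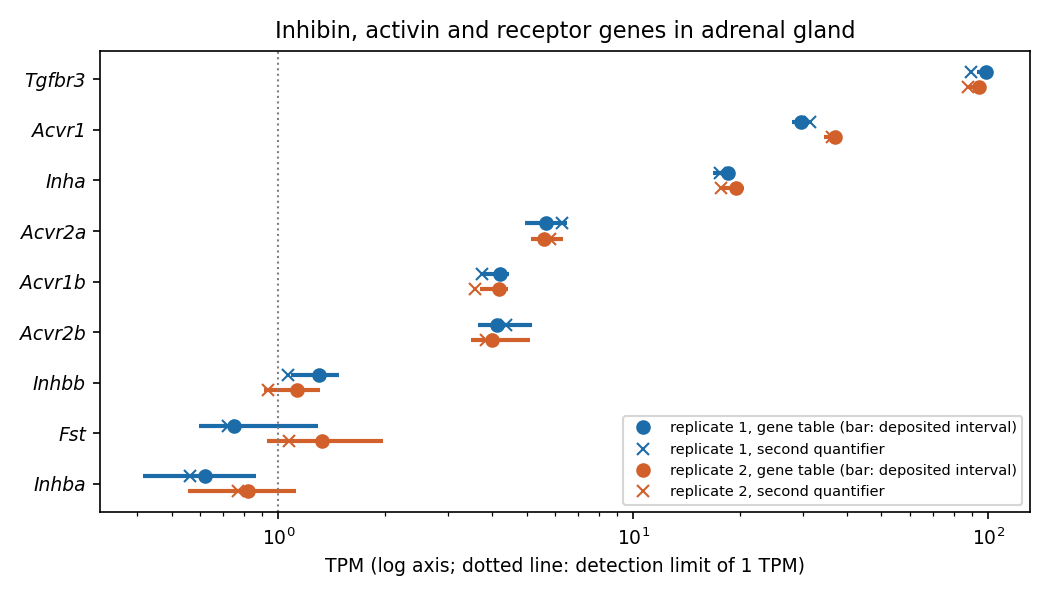
Level of each gene on a log axis in TPM, with circles for the gene table, bars for its deposited bounds, crosses for the second quantifier, blue for replicate 1 and orange for replicate 2. Tgfbr3 is at 98.3 and 94.1 TPM, the bars of Acvr1 do not overlap, and Inhbb, Fst and Inhba lie about the dotted line at 1 TPM.

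The transcript tables show which forms of these genes the reads were assigned to. Inha, Inhbb and Acvr1b have 1 annotated transcript each, with 1098, 1233 and 1515 coding bases (stop codon not counted), and the other 6 genes have 2 to 6. Of these 6, the leading transcript was the same in both libraries and with both quantifiers for 4, all but Fst and Acvr1. The second quantifier is a further deposited transcript table whose values were made directly from the reads.

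Both transcripts of Inhba encode the same 1272 coding bases. Inhba-201, of 6390 bases with a long stretch after the stop codon, held 62.2% and 58.4% of the gene's TPM, and the shorter Inhba-202, of 1529 bases, held the rest. The second quantifier gave Inhba-201 74.6% and 72.7%, so it led by both methods. The encoded protein is the same for both.

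Follistatin is known in a shorter form that stays at cell surfaces and a longer form that circulates, made by splicing at the end of the gene. Fst-202, with 951 coding bases, held 42.5% and 36.2% of the gene's TPM in replicates 1 and 2, and Fst-205, with 1029, held 37.0% and 32.2%. Fst-201, with 1032 coding bases, was at 12.8% in replicate 1 and at 0 in replicate 2. With the second quantifier Fst-205 led instead, at 43.1% and 41.9% against 33.9% and 41.7% for Fst-202. Fst-201 and Fst-205, the longer coding sequences, together held 49.8% and 32.2% in the gene pipeline and 59.2% and 49.8% with the second quantifier. In TPM share they were above Fst-202 in replicate 1 by both quantifiers, and in replicate 2 only with the second. In expected counts of the gene pipeline, Fst-202 led in both libraries, with 24.9 and 33.7, or 63.8% and 64.9%. Fst-205 had 8.03 and 11.1 expected counts and Fst-201 4.79 and 0, so these shares rest on few reads.

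The retained-intron transcript Fst-203 had no count in replicate 1 and 30.5% of the gene's TPM in replicate 2, where that share rests on 5.96 expected counts. The second quantifier assigned it 1.12 counts and 7.04%. Without Fst-203, whose 0.41 TPM is part of the 1.33 TPM of replicate 2, the difference in Fst between libraries is smaller than the gene totals give.

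Acvr1 has 4 transcripts, Acvr1-201 to Acvr1-204, that encode the same 1527 bases. Together they held 99.9% of the gene's TPM in replicate 1 and 95.3% in replicate 2. Within these 4 the shares differed between libraries: Acvr1-204 held 41.7% and 24.5%, Acvr1-203 16.6% and 30.8%, and Acvr1-201 36.1% and 35.3%. The second quantifier showed the same direction for Acvr1-204 (34.4% and 24.7%) and for Acvr1-203 (5.75% and 17.4%). Acvr1-203, whose annotated start lies downstream of those of the other 3, had 394 expected counts in replicate 1 and 814 in replicate 2.

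A coding transcript of 612 bases that is annotated as incomplete, Acvr1-205, separated the quantifiers. The gene pipeline gave it 0 and 4.46% of Acvr1, and the second quantifier gave it 17.5% and 15.7%. The summed level of Acvr1 was nevertheless alike by both, at 31.4 and 36.2 TPM with the second quantifier.

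For Acvr2a, the full coding transcript Acvr2a-201 held 89.6% and 100% of the gene's TPM, and the noncoding Acvr2a-202 the rest, on 19.4 counts and no count. The second quantifier put Acvr2a-202 higher, at 30.8% and 22.7%. The last exon of Acvr2a overlaps the end of Orc4 on the opposite strand, which had 937 and 776 counts. The libraries are strand-specific, and whether the counting used strand is not stated in the sources used here.

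The coding transcripts of Acvr2b hold 3 coding sequences, of 1536, 1608 and 1584 bases. Acvr2b-205, the shortest of these in coding length, led with 45.6% and 43.0%. Acvr2b-202 held 19.4% and 28.8%, and Acvr2b-201 held 16.6% and 4.11%, on 31.9 and 6.84 counts. The second quantifier gave the same order of the libraries for Acvr2b-202 (13.8% and 26.9%) and Acvr2b-201 (16.5% and 4.29%). Transcripts without a coding sequence made up the remainder of Acvr2b, at 18.47% and 24.05% of its TPM. They took only 4.07% and 5.31% of its expected counts. The second quantifier gave them 26.8% and 27.1% of the TPM.

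Tgfbr3-201, with 2550 coding bases and 17 exons, held 72.5% and 69.0% of the TPM of Tgfbr3, which places the full coding transcript alone at 71.2 and 65.0 TPM. The retained-intron transcript Tgfbr3-204 held 21.4% and 24.0% of the TPM. Because it is much shorter, at 1368 bases against 6087, the transcripts without a coding sequence took only 7.26% and 9.01% of the gene's expected counts. The quantifiers divided these forms differently: Tgfbr3-203 had 197 and 256 counts in the gene pipeline and 1379 and 1423 with the second quantifier. Tgfbr3-201 stayed the leading transcript by either, at 68.7% and 60.4% with the second quantifier. The 3 unconfirmed entries that lie within Tgfbr3 on its strand were given 670 and 628 expected counts. Expected counts were fractional for Tgfbr3 (13236.77 and 10987.76) and for Gm43422 (363.23 and 273.24), so some of their reads were divided among features.

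**Figure D2:**
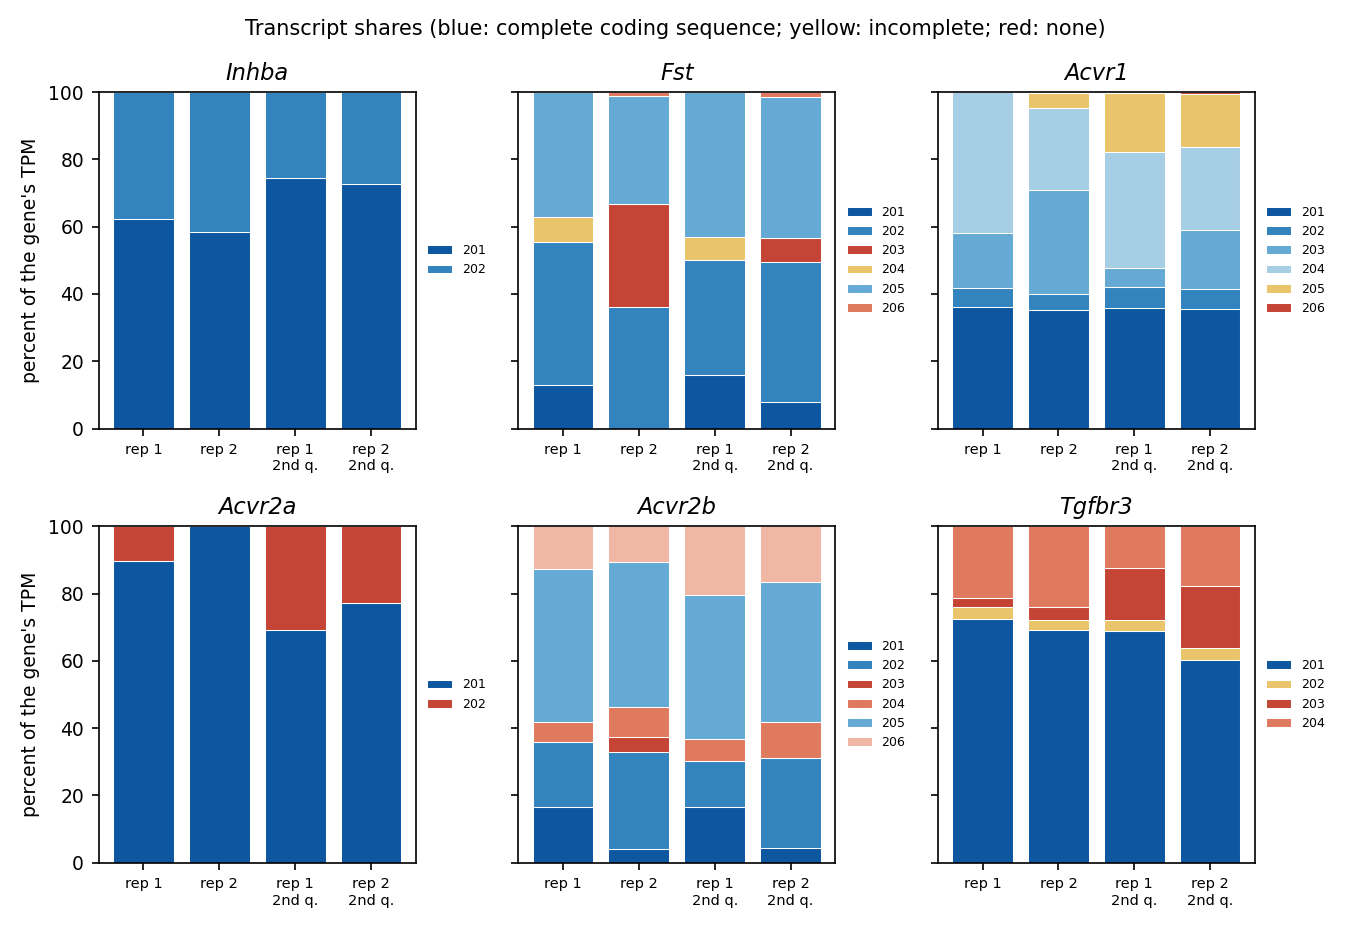
Percent of the gene's TPM held by each annotated transcript of the 6 genes with more than 1, in stacked bars for replicates 1 and 2 of the gene pipeline and of the second quantifier (2nd q.). Blue segments have a complete coding sequence, yellow an incomplete one and red none; Acvr1-204 is at 41.7% and 24.5% and Fst-203 at 0 and 30.5% in the first 2 bars of their panels.

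The rest of the pathway was read from lists of related genes. Beside the numbers detected in each list stands the share of 56.2% over annotated protein-coding genes. Among 15 other ligands of the family, 6 were detected. Bmp7, a BMP ligand, was the highest at 34.7 and 40.7 TPM, which is 1.88 and 2.09 times Inha. Tgfb1 stood at 13.1 and 14.3 TPM, Bmp4 at 6.53 and 4.51 TPM, and Tgfb3 at 3.83 and 4.16 TPM. Inhbc and Inhbe, the beta C and beta E subunit genes, and Nodal, a ligand that uses activin receptors, had no count in either library of the gene table. The second quantifier gave Inhbe 0.218 and 0.227 TPM and Nodal 0.0141 TPM in replicate 1, with Inhbc at 0. In the gene table a count of 0 allows up to 0.103 CPM in replicate 1 and 0.114 CPM in replicate 2, for counting error only.

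Of 12 other receptors and co-receptors, 7 were detected. Eng, the endothelial co-receptor endoglin and the closest relative of Tgfbr3, stood at 43.6 and 45.0 TPM. The type II receptors for TGF-beta and BMPs, Tgfbr2 (36.9 and 36.5 TPM) and Bmpr2 (20.8 and 21.6 TPM), were together 5.89 and 6.05 times the sum of Acvr2a and Acvr2b. Among type I receptors, Bmpr1a stood at 19.6 and 19.6 TPM, Tgfbr1 at 15.3 and 14.2 TPM and Acvrl1 at 7.54 and 7.75 TPM, all above Acvr1b and below Acvr1.

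Acvr1c, which encodes ALK7, the type I receptor most like Acvr1b in its ligands, stood at 2.97 and 3.36 TPM, below Acvr1b in both libraries. The receptor genes not detected were Bambi (0.91 and 1.14 TPM), Igsf1 (0.72 and 0.34 TPM), Amhr2 (0.45 and 0.51 TPM) and Bmpr1b (0.32 and 0.39 TPM), and Tdgf1, with no count in the gene table and 0.0618 and 0.321 TPM with the second quantifier. Tgfbr3 was thus above all 12 in both libraries.

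Fst was not the leading antagonist. Of 6 other extracellular antagonists 3 were detected, and Fstl3, the follistatin-like protein that also binds activin, was the highest at 17.9 and 16.2 TPM. Fstl3 was 23.8 times Fst in replicate 1 and 12.2 times in replicate 2. Chrd, a BMP antagonist, stood at 9.82 and 9.90 TPM, Lefty1, an antagonist of Nodal, at 7.24 and 7.31 TPM, and Lefty2 at 0.99 and 1.45 TPM. Expected counts were fractional for Lefty1 (247.45 and 237.76) and Lefty2 (67.55 and 88.24). Some of their reads were therefore divided among features, which limits how separate these 2 levels are.

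All 8 SMAD genes were detected, between 2.65 and 24.3 TPM in mean. Smad4, the shared partner, stood at 25.0 and 23.6 TPM, Smad2 at 22.6 and 25.2 TPM, Smad5 at 22.3 and 23.1 TPM and Smad3 at 16.1 and 12.8 TPM. Each of the 2 activin-directed SMADs was therefore above Acvr1b and both type II receptor genes in level. Of 8 genes that modulate SMADs 6 were detected, led by Ski (20.8 and 22.2 TPM), Tgif1 (19.97 and 21.7 TPM), Skil (12.8 and 13.8 TPM) and Smurf2 (11.9 and 12.2 TPM).

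The 4 listed genes of the proprotein convertases, the protease family that cuts the subunits' precursors, were all detected. Pcsk5 stood at 89.9 and 65.9 TPM, Furin at 62.3 and 57.9 TPM, Pcsk7 at 14.6 and 17.0 TPM and Pcsk6 at 3.46 and 2.26 TPM. Of 7 gonadotropin receptors and transcription factors known from inhibin gene control 4 were detected: Nr5a1, which encodes SF-1 (126 and 147 TPM), Gata6 (43.1 and 36.9 TPM), Creb1 (16.4 and 16.7 TPM) and Nr5a2 (1.09 and 1.04 TPM). In the gene table Fshr had no count, and Lhcgr had 2 counts in replicate 1 and none in replicate 2. The second quantifier also had Fshr at 0 and gave Lhcgr 0.205 and 0.233 TPM.

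**Figure D3:**
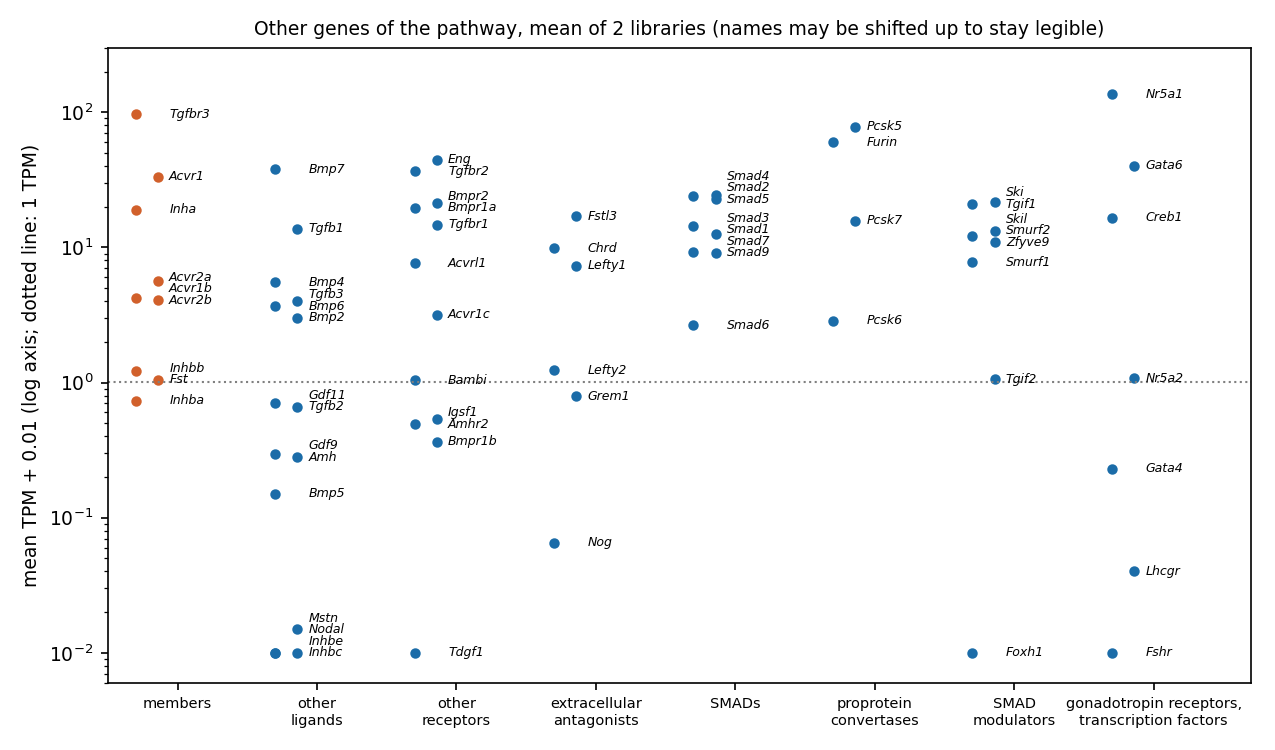
Mean TPM of the 2 libraries plus 0.01, on a log axis, for the 9 genes (orange) and 7 lists of related genes (blue), with the dotted line at 1 TPM. Tgfbr3 lies above the other receptors, Fst below Fstl3, and genes with no count sit on the lowest line.

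The markers of the tissue were in place. All 6 cortex markers were detected, with sums of 10619 and 10698 TPM, and all 5 medulla markers, with sums of 1981 and 2289 TPM. Gonadal supporting and steroid cells also express inhibin genes, and 3 of their 5 markers were detected, where 56.2% of annotated protein-coding genes were. These were Insl3 (3.98 and 3.60 TPM), Cyp17a1 (1.28 and 1.44 TPM) and Sox9 (1.24 and 1.38 TPM). Fshr was at 0 and Amh at 0.24 and 0.30 TPM, and all 5 summed to 6.74 and 6.72 TPM. The 5 adipocyte markers summed to 470 TPM in replicate 1 and 274 TPM in replicate 2, each lower in replicate 2, and the 5 medulla markers were each higher in replicate 2. Their part in the differences between libraries below was not tested. Endothelial markers summed to 211 and 216 TPM, fibroblast markers to 129 and 134 TPM, macrophage markers to 96.9 and 87.1 TPM and kidney markers to 1.86 and 1.09 TPM. The sums hide differences in direction. In counts scaled to library totals, 1 endothelial marker was higher in replicate 2 and 4 were lower. Of the fibroblast markers 2 were higher and 3 lower, and the macrophage markers divided likewise. In each of the last 2 lists, 1 marker was lower by 1.5-fold or more. So were 4 of the 5 adipocyte markers and the 2 kidney markers with a mean of at least 20 counts. Of all genes with that count, 6.70% were 1.5-fold or more apart in either direction.

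Differences between the libraries were small for most of the 9 genes. They are given as the log2 ratio of replicate 2 to replicate 1 in scaled counts, with a standard error from counting alone. None of the 9 was 1.5-fold or more apart, where 6.70% of the 16380 genes with a mean of at least 20 counts were. The median size of the log2 ratio was 0.13 over the 9 genes and 0.12 over the 16380.

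Of the receptor genes, Acvr1 was higher in replicate 2, with a log2 ratio of 0.23 (SE 0.04), and Tgfbr3 lower, with a log2 ratio of -0.13 (SE 0.02). These were the 2 of the 9 genes whose 95% counting interval left out 0, as it did for 30.7% of the 16380 genes. For every gene the interval covers counting error alone, which is small at the depth of these 2, and not the spread between glands. Nor does it cover the division of reads between Tgfbr3 and other features.

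The scarce ligand and antagonist genes had the widest intervals. Fst had a log2 ratio of 0.55 (SE 0.30) and Inhba one of 0.33 (SE 0.22), both higher in replicate 2, and Inhbb had one of -0.23 (SE 0.18). Inha, with more counts, had a log2 ratio of 0.06 (SE 0.08). At these depths none of the differences of the 3 scarce genes was detectable beyond counting error.

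Acvr2a (0.09, SE 0.07), Acvr1b (-0.03, SE 0.09) and Acvr2b (-0.12, SE 0.13) also had log2 ratios within their counting intervals. In all, 5 of the 9 genes were higher in replicate 2 and 4 lower. On the TPM scale Acvr1 was at 0.32 and Tgfbr3 at -0.06. Each kept its sign but lay outside the counting interval of its scaled counts, so the size of these 2 differences depends on the scale. Acvr2a changed sign on the TPM scale, at -0.02, and Fst passed 1.5-fold, with a log2 ratio of 0.75. The length that enters TPM is a mean over a gene's transcripts, and for Fst it was 1922 bases in replicate 1 and 1623 in replicate 2, so the shift to the short Fst-203 enters that value.

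**Figure D4:**
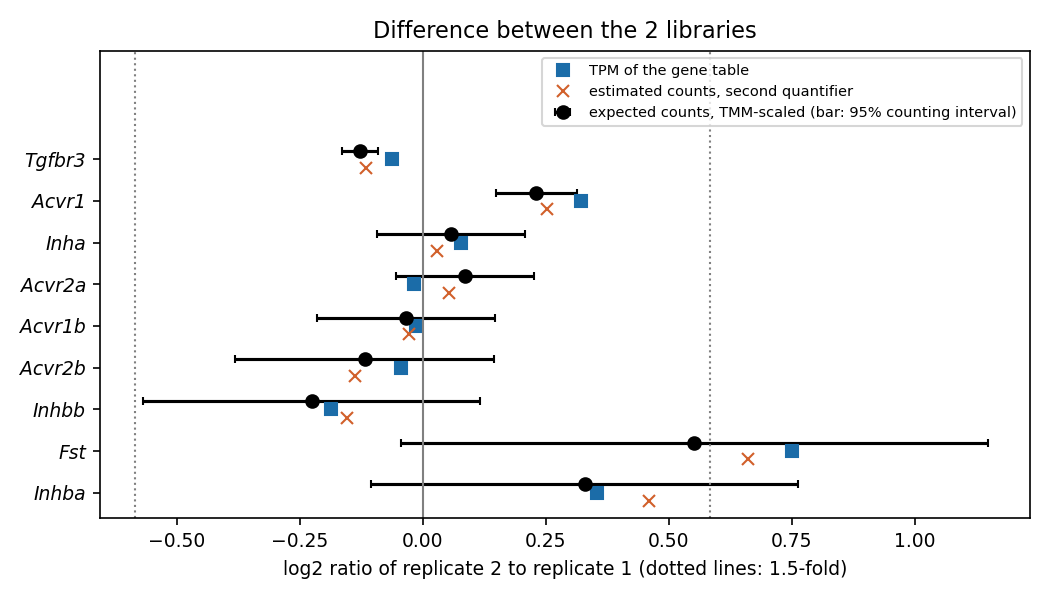
Log2 ratio of replicate 2 to replicate 1 for each gene from scaled expected counts (circles, with bars for the 95% counting interval), TPM (squares) and the second quantifier's estimated counts (crosses); dotted lines mark 1.5-fold. Acvr1 at 0.23 and Tgfbr3 at -0.13 have bars clear of 0, and only Fst has a point past a dotted line.

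The levels from the second quantifier lay close to those of the gene table. As the log2 ratio of its mean TPM to that of the gene table, Tgfbr3 was at -0.12, Acvr1 at 0.02, Inha at -0.11, Acvr2a at 0.10 and Acvr1b at -0.19. Acvr2b was at 0.02, Inhbb at -0.26, Fst at -0.20 and Inhba at -0.09. None of the 8 genes with a mean of at least 1 TPM in either table was 1.5-fold apart, where 13.3% of the 15872 such genes were. The median size was 0.11 over these 8 genes and 0.16 over the 15872. The lower value for Inhbb brought it to 1.06 and 0.933 TPM, so it was not detected in replicate 2 by that quantifier.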

How the data were processed

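Ribosomal RNA was reduced in total adrenal RNA and strand-specific libraries were made, per the labels. For each gene the authors deposited expected counts, TPM and FPKM, on mm10 with GENCODE M21, per the file headers and the labels. The bounds of a TPM interval are a signal in TPM units, deposited with the gene tables. Each transcript's percent of its gene (IsoPct) was deposited in the transcript table of that pipeline. Estimated counts and TPM of the second quantifier were deposited by the authors in a further transcript table and were summed per gene here. The aligner is not given in the sources used here, nor is either quantifier.

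The 55536 annotated genes of 81881 features were matched by identifier, and spike-ins and entries that name no gene stayed out of totals. Expected counts were rounded to whole numbers. Ratios used TMM-scaled totals (edgeR 4.0.16, R 4.3.3, factors 0.997 and 1.00) and a prior count of 0.5; DESeq2 1.42.0 gave alternative size factors. Standard errors and intervals are Poisson, and cover counting error only, since sequenced reads need not be separate molecules. A pseudocount of 0.1 TPM was added to compare quantifiers. The calculation of the ratios was checked on simulated counts with planted changes. That simulation held no divided reads and no shifts in transcript length, so it does not bear on those limits. Sequences and transcript structures came from GENCODE M21, and figures were drawn with matplotlib 3.10.9 under Python 3.11.15. All 9 members were named, the 4 highest genes of each list, and every other receptor; further genes named were chosen after their values were seen. A further antagonist gene is not reported here. The members and lists were chosen with earlier results of these data known. No likeness of pattern between genes is given, because 2 libraries of 1 group hold a single difference.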

Additional observations from a re-analysis of the deposited data

How the results depend on the processing

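The median level of the 9 genes, 4.19 TPM, was 4.11 TPM with the second quantifier, 4.08 as FPKM, and 12.5 TPM when rescaled over nuclear protein-coding genes, which moved all 9 levels; without 1 library it ranged from 4.17 to 4.21 TPM. Detected genes numbered 9 at 0.5 TPM, 6 at 2 TPM, 6 with the second quantifier, 7 to 8 without 1 library, and 9 after rescaling over nuclear protein-coding genes, which was added after seeing the data. Genes 1.5-fold apart between libraries numbered 0, also with DESeq2 size factors, total counts and either other count minimum, and 1 (Fst) as TPM or with the second quantifier. The median log2 ratio between libraries, 0.06, was -0.01 as TPM. The median between quantifiers, -0.11, ranged from -0.11 to -0.074 without 1 library. With the second quantifier, Inha to Inhba plus Inhbb was 10.6 in place of 9.81, Acvr2a to Acvr2b 1.47 in place of 1.38, and Tgfbr3 to Acvr2a plus Acvr2b 8.72 in place of 9.93; the cause was not tested. Leaving out either library gives no ratio between libraries. No paired analysis was possible because there is 1 group. Depth limits Inhba, Inhbb and Fst most.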

Other observations

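Among the related genes, Tgif2, a SMAD corepressor gene, had 51.3 and 76.8 expected counts in replicates 1 and 2, a log2 ratio of 0.73 (SE 0.26), past 1.5-fold and higher in replicate 2. It was named after its values were seen, and 6.70% of the 16380 genes with a mean of at least 20 counts were past 1.5-fold. The expected counts of Tgif2 were fractional, so some reads were divided among features, which the SE does not cover. Bmp4 differed in direction between scales: its TPM was 6.53 in replicate 1 and 4.51 in replicate 2, while its expected counts were 137 and 151, a log2 ratio of 0.28 (SE 0.17).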
